A study of Mus musculus with 9 samples.

Results

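The mRNA signals of genes that make polyamines and control their level were followed in mouse thymocytes with active β-catenin, the effector of canonical Wnt signalling. A list of 8 genes (Odc1, Srm, Sms, Amd1, Azin1, Oaz1, Oaz2 and Sat1) defined the set, and its members were the array probe sets annotated to exactly 1 of them. This rule found 12 probe sets of 6 genes (Odc1, Srm, Azin1, Oaz1, Oaz2 and Sat1), out of 45037 probe sets on the array and 11644 genes tested, and all 12 passed the filter on dim signals. Sms was listed on 3 probe sets, each annotated to the pseudogene Sms-ps as well, and 1 further Oaz1 probe set also named Oaz1-ps, so these 4 are described separately as uncertain. Amd1 was named by no probe set in the annotation used here, and its level was not analysed here.

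Each of 9 C57Bl/6 mice gave RNA for 1 oligonucleotide array. The tumour group held unsorted thymic tumours, with at least 95% CD4+CD8+ double-positive (DP) cells, of 4 mice aged 28, 26, 23 and 21 weeks (tumours 1 to 4). Pre-transformed samples were DP thymocytes sorted from 3 mice aged 6 weeks, and both groups had the genotype R26NC/NC CD4Cre+. Control samples were DP thymocytes sorted from 2 mice aged 6 weeks that were R26NC/NC CD4Cre-, so that the R26NC allele was present in every mouse and the CD4-driven Cre in every mouse of the other groups. No mouse carried the Cre without the R26NC allele, and effects of the recombinase and of β-catenin cannot be told apart. Tumour RNA (2.5 µg) was labelled by the standard protocol and RNA of sorted cells (0.1 µg, over 98% DP) after amplification, so labelling, sorting and age cannot be told apart from transformation.

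Tumour arrays correlated with those of sorted cells at ranks of 0.793 to 0.863 across genes, against 0.979 to 0.991 among sorted-cell arrays, and genes are not independent replicates. Tumours 1, 3 and 4 had summed signals of 9 myeloid markers of 3289.7 to 3640.2, while tumour 2 had 168.6, within the range of 147.1 to 307.4 of the sorted cells. B cell markers summed to 1584.7 to 5515 in tumours 1, 3 and 4 and 245.5 in tumour 2, against 1772.8 to 3044.7 in sorted cells. Most of each sum was Ighm, which read 1552.8 to 2778.9 in the sorted cells too. Ms4a1 read 138.9 to 269.7 in those 3 tumours and 5 in tumour 2, against 1.5 to 8.9 in sorted cells. Cd79a read 67.9 to 95.6 and 0.5, against 2.7 to 5.8. Cd79b went the other way, at 1.3 to 108.5 in the tumours against 195.8 to 253.9 in sorted cells. Of 8 tested markers of DP cells, 7 were lower in tumours than in pre-transformed cells, where 31% of all genes were. The exception was Cd4, which was called higher in tumours than in controls. Cd4 read 1007.9 to 1725 in tumours, 832.1 to 1109.8 in pre-transformed cells and 706.6 to 738.3 in controls. The gap was small for Cd8a, at 2056.2 to 2946 in tumours against 3709.9 to 3931.1 in pre-transformed cells. Ptcra, the pre-T cell receptor α chain, had signals of 2.7 to 6.8 in tumours against 213.6 to 250.6 in pre-transformed cells. Log2 ratios of the 3′ to the 5′ β-actin probe sets were 0.54 to 1.14 in tumours and 0.20 to 0.35 in sorted cells, while those of Gapdh overlapped, at −0.53 to −0.10 in tumours and −0.34 to −0.01 in sorted cells. By Xist and Y-linked signals, tumour 4 and pre-transformed 1 came from males. The part of any of these in the results below was not tested, and precision is limited by how few arrays each group has.

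Polyamines are small positively charged molecules that bind nucleic acids and are needed for growth. Ornithine decarboxylase (Odc1) turns ornithine into putrescine, spermidine synthase (Srm) makes spermidine and spermine synthase (Sms) makes spermine, with aminopropyl groups supplied through S-adenosylmethionine decarboxylase (Amd1). Antizymes (Oaz1, Oaz2) bind the decarboxylase and send it to the proteasome, and their own translation needs a ribosomal frameshift that polyamines promote. Antizyme inhibitor (Azin1) resembles the decarboxylase and takes antizymes away from it, while Sat1 acetylates spermidine and spermine for breakdown and export. In lymphocytes, polyamine synthesis rises with proliferation, and Odc1 is a textbook target of Myc.

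Promoter sequences are shown for Odc1, as the gene of the committed step, and for Sms, as the gene with the motif searched. Oaz2 is shown as the antizyme that fell on its brightest probe set. RefSeq (build GRCm38.p6) gave windows of 250 bases before to 50 after the start for 6 of the 8 genes and 7 starts, with none for Srm and Azin1 in the table used. The motif searched was CACGTG, the E-box that Myc binds, which reads the same on both strands. It was present in 1 of 6 genes, Sms, at 196 bases before its upstream start, against 2187 of 27025 genes with RefSeq promoters of the same length (8.09%), and in 1 of the 7 windows, against 2349 of 32851 promoters (7.15%). A match is a description of letters, and no match says only that these letters are not in the window. The Odc1 window lies at chr12:17544623-17544922 on the plus strand, the Oaz2 window at chr9:65676298-65676597 on the plus strand and the Sms window at chrX:157492238-157492537 on the minus strand. Capitals mark the motif.
Odc1: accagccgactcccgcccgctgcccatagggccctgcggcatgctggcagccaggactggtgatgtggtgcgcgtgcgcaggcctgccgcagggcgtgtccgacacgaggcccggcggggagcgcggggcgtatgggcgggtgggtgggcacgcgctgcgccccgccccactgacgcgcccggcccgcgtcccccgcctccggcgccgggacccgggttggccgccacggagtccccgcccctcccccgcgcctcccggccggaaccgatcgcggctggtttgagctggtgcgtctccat
Oaz2: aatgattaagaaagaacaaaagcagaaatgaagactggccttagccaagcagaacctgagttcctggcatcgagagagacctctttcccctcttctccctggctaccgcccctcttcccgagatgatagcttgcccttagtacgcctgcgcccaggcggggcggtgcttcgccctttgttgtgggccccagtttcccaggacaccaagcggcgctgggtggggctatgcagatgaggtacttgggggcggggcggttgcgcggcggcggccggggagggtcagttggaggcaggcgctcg
Sms: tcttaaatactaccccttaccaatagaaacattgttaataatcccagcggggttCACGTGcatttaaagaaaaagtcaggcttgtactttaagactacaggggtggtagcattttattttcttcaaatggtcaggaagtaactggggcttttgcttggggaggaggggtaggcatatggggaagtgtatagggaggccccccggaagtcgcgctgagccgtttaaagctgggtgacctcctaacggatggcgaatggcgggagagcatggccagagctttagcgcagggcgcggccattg

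Tumours had higher mRNA signals of polyamine synthesis genes than pre-transformed thymocytes. By the brightest probe set of each gene, Odc1 and Srm showed the widest gaps among the 6 genes tested, while the antizyme gene Oaz2 was lower. The other Oaz2 probe sets did not pass, and a dimmer Azin1 set had a larger log2 change than Odc1 and Srm. Of the 6 genes tested, 4 were higher in tumours (Odc1, Srm, Azin1 and Oaz1) and 1 was lower (Oaz2), and the call of Oaz1 was lost with median centring and turned in direction with quantile normalization. All genes tested gave 23.9% higher and 31% lower calls in this comparison, 54.9% in all, by limma with a Benjamini-Hochberg adjusted p under 0.05 over 11644 genes. Groups did not overlap for 3 members in the higher direction (Odc1, Srm and Oaz1) and 1 in the lower (Oaz2), where 24.8% of all genes were higher and 32.1% lower without overlap, 57% in all. The median log2 change of the 6 was 0.54, against −0.12 for all genes tested. The gene list was chosen with earlier results of these data known, so these counts and medians are description only. Without pre-transformed 1 the calls of Azin1 and Oaz1 were lost and 3 members were called. Fewer cells of a type and less RNA per cell cannot be told apart in such bulk samples.

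Against controls, tumours had 2 of 6 members higher (Odc1 and Srm) and 1 lower (Oaz2), where 20.5% of all genes were higher and 25.2% lower, 45.7% in all. The same 4 members had no overlap there, 3 higher and 1 lower, against 27.4% and 33.1% of all genes, 60.5% in all. The median log2 change was 0.42, against −0.08 for all genes tested. The 2 tumour comparisons share the tumour arrays. Pre-transformed cells differed from control cells in 0 of 6 members by limma, where 1.63% of all genes were called (1.11% higher, 0.524% lower). The 190 calls behind that share were 18 to 291 with each array left out (291 without pre-transformed 2, 18 without control 2) and 1 with no trend of the spread. Of the 6 members 1, Odc1, had an unadjusted p under 0.05, and the share of all genes under that p is not given here. The median of the 6 was −0.11, against 0.02 for all genes.

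**Figure D1:**
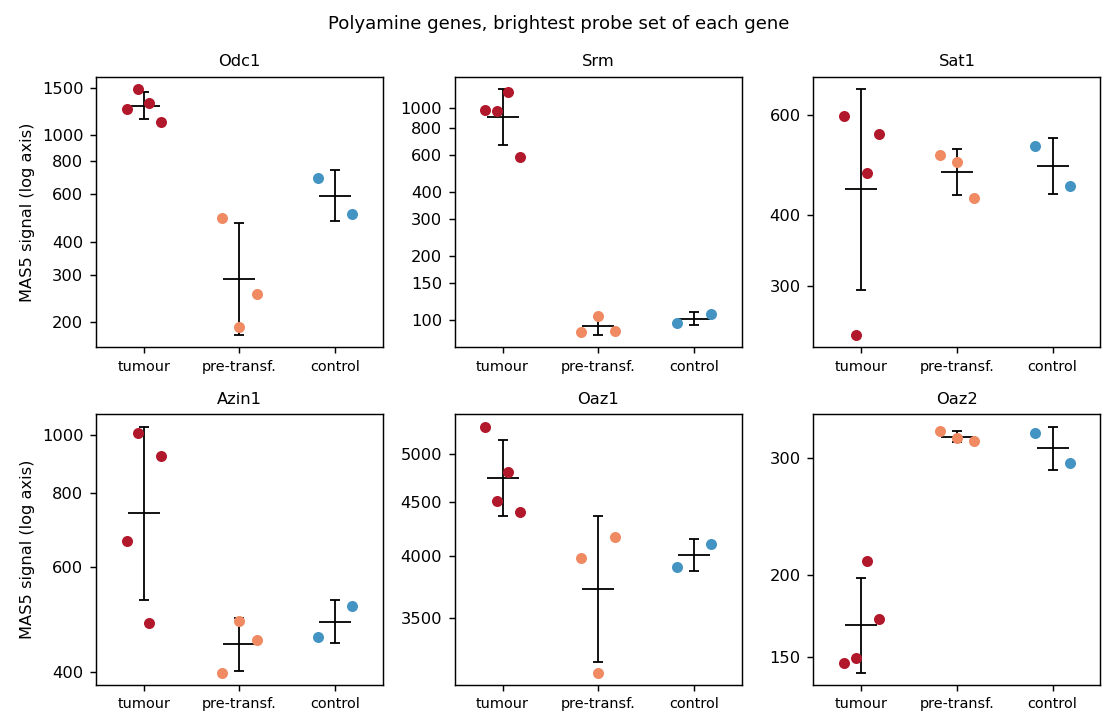
MAS5 signal (log axis) of the brightest probe set of 6 polyamine genes in 4 tumours, 3 pre-transformed and 2 control arrays. Points are arrays, and bars show the geometric mean and 1 SD on the log2 scale. Tumours lie above both sorted groups for Odc1 and Srm and below them for Oaz2, and Sat1 groups overlap.

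Odc1, which catalyses the committed step of synthesis, had signals of 1254.1, 1478.1, 1310.8 and 1115.7 in tumours, against 491.4, 192.6 and 256.0 in pre-transformed cells and 693.5 and 507.2 in controls. The 3 groups did not overlap, with tumours at the top and pre-transformed cells at the bottom. Geometric means with SDs on the log2 scale were 1283 (SD 0.17, 4 tumours), 289.4 (SD 0.69, 3 pre-transformed samples) and 593.1 (SD 0.32, 2 controls). Tumours were 4.43-fold above pre-transformed cells (log2 change 2.15 ± 0.28 SE, limma adjusted p = 0.000175) and 2.16-fold above controls (1.11 ± 0.32 SE, adjusted p = 0.0169). The call against controls was lost with median centring (log2 change 0.72, adjusted p = 0.0987) and without control 2 (0.89, adjusted p = 0.144).

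Before transformation Odc1 had a log2 change of −1.03 ± 0.34 SE in pre-transformed against control cells (limma adjusted p = 0.17), which did not pass. It was the 1 member without overlap here, and such groups were found for 36.3% of all genes, 20.6% higher and 15.6% lower. Pre-transformed 1, from a male, was the highest of its group on every Odc1 probe set. Without it the change was −1.42 (adjusted p = 0.0221) and passed. A larger SD among the 3 pre-transformed arrays than that of Odc1 was seen for 8.91% of the genes tested.

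The other Odc1 probe sets gave the same order of group means. Probe set 1437711_x_at had 1455.1, 1355.1, 1037 and 1164.1 in tumours, 287.4, 162.1 and 146.2 in pre-transformed cells and 441.1 and 301.8 in controls. Again no groups overlapped. Fitted on its own among 21906 probe sets, it had a log2 change of 2.71 for tumours over pre-transformed cells (limma adjusted p = 3.11e-05), 1.77 over controls (adjusted p = 0.00106) and −0.94 for pre-transformed over control cells (adjusted p = 0.166). Probe set 1427364_a_at was dimmer, at 90.9, 115.1, 128 and 78 in tumours, 67.3, 34.2 and 37.9 in pre-transformed cells and 58 and 51.7 in controls. Here tumours were higher than pre-transformed cells (log2 change 1.19, adjusted p = 0.0063) and missed the threshold against controls (0.88, adjusted p = 0.0502), and the sorted groups overlapped.

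Srm, spermidine synthase, had the largest log2 change among the brightest probe sets of the 6 members in both tumour comparisons. Its signals were 977.7, 967.7, 1191.2 and 585.8 in tumours, against 88.1, 104.5 and 88.4 in pre-transformed cells and 96.2 and 106.4 in controls. Every tumour lay above every sorted sample, tumour 4 the lowest of them, and the sorted groups overlapped. The tumour mean of 901.4 (SD 0.44, n = 4) was 9.65-fold above the pre-transformed mean of 93.36 (SD 0.14, n = 3), which is 3.27 ± 0.23 SE on the log2 scale ( limma adjusted p = 8.63e-06). Against the control mean of 101.2 (SD 0.10, n = 2) tumours were 8.91-fold higher (3.16 ± 0.26 SE, adjusted p = 4.16e-05). Pre-transformed over control cells gave −0.12 (95% interval −0.47 to 0.24, adjusted p = 0.752). Srm lies on 1 probe set, so no other probe set checks it.

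Sms, spermine synthase, could be followed only through probe sets that also name Sms-ps, and these were fitted among all 26421 kept probe sets. The brightest had 733, 772.7, 668.4 and 779.4 in tumours, against 254.1, 213.9 and 254 in pre-transformed cells and 281 and 288 in controls. Tumours stood above all sorted samples, 3.07-fold over pre-transformed cells (log2 change 1.62 ± 0.14 SE, limma adjusted p = 3.11e-05) and 2.59-fold over controls (adjusted p = 0.000265). Pre-transformed over control cells did not pass (−0.25, adjusted p = 0.389), with arrays that did not overlap. A second, dimmer set had 71.2, 34, 32.2 and 38.2 in tumours, 12.9, 12.2 and 9.8 in pre-transformed cells and 13.1 and 15.2 in controls, and passed in tumours over pre-transformed cells (adjusted p = 0.00207). The last had 255.8, 140.3, 179.2 and 190.7 in tumours, 144, 81.1 and 119.6 in pre-transformed cells and 120.7 and 133.9 in controls. That set passed against pre-transformed cells (0.74, adjusted p = 0.0379), with overlap, and did not pass against controls (0.56, adjusted p = 0.157).

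**Figure D2:**
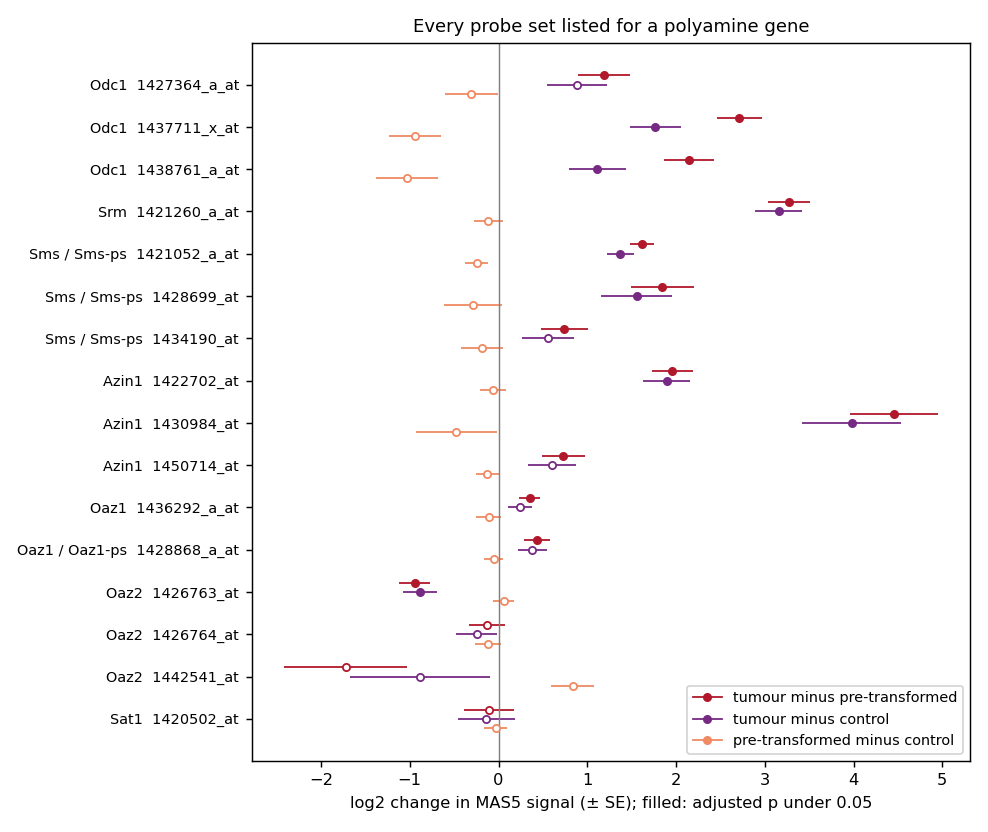
Log2 change in MAS5 signal (± SE) for the 12 probe sets that name 1 polyamine gene and the 4 shared with a pseudogene, fitted among all 26421 kept probe sets. Filled points passed an adjusted p of 0.05, and colours mark the 3 comparisons. No point for pre-transformed minus control is filled, and the Azin1 and Oaz2 probe sets of 1 gene lie far apart.

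Azin1, which frees the decarboxylase from antizymes, was higher in tumours by an amount that depended on the probe set. On the brightest, 1450714_at, signals were 663.9, 1006.2, 484.8 and 920.6 in tumours, against 399.9, 488.6 and 453.4 in pre-transformed cells and 458.6 and 515.9 in controls. Tumour 3 lay within the range of the sorted samples. The difference was 1.66-fold over pre-transformed cells (log2 change 0.73 ± 0.24 SE, limma adjusted p = 0.0242) and did not pass against controls (0.60 ± 0.27 SE, adjusted p = 0.0889). The call over pre-transformed cells was lost with median centring (0.47, adjusted p = 0.219), without both male arrays (0.55, adjusted p = 0.162), and without tumour 4, pre-transformed 1 or pre-transformed 3 (adjusted p of 0.0584, 0.0873 and 0.0623). Against controls it passed without tumour 3 (0.81, adjusted p = 0.0092).

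On 1422702_at, Azin1 had 827.1, 954.7, 483.9 and 875.2 in tumours, against 189.1, 174.7 and 226.3 in pre-transformed cells and 199.6 and 209.5 in controls. Here no tumour overlapped with sorted cells, at 3.89-fold over pre-transformed cells (log2 change 1.96 ± 0.23 SE, limma adjusted p = 0.00011) and an adjusted p of 0.00051 against controls. On 1430984_at the signals were 204.6, 201.8, 57.9 and 71.4 in tumours, 4.2, 5.8 and 5.8 in pre-transformed cells and 6.9 and 7.6 in controls. Sorted cells were below the 65th percentile of their arrays, 39.4 to 44.6, which was taken as the limit for a dim signal, so tumours were at least 2.61-fold above pre-transformed cells (adjusted p = 7.06e-05) and at least 2.8-fold above controls. Tumour 3 was the lowest tumour on each of the 3 probe sets. In pre-transformed against control cells the brightest set gave −0.13 (adjusted p = 0.641).

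Oaz1, the main antizyme, was high on every array, with signals of 5306.5, 4511.4, 4805.9 and 4406 in tumours, against 3988.9, 3105.7 and 4169.1 in pre-transformed cells and 3911.7 and 4114 in controls. Tumours lay above the sorted samples by a narrow margin. The 1.27-fold difference from pre-transformed cells (log2 change 0.35 ± 0.13 SE, limma adjusted p = 0.0383) passed, was 0.09 with median centring (adjusted p = 0.664) and turned to −0.18 with quantile normalization (adjusted p = 0.287). In all, 9 of 19 alternatives lost the call and 1 turned its direction, among them those without tumours 1 or 3, without pre-transformed 1 or 2 and without both male arrays (adjusted p of 0.0557 to 0.149). Against controls the change of 0.24 did not pass (adjusted p = 0.189), and it was negative with quantile normalization and median centring. The probe set shared with Oaz1-ps had 4565.7, 4035.4, 3167.4 and 3084 in tumours, 2582, 2769.9 and 2767.5 in pre-transformed cells and 2635.9 and 2993.7 in controls (0.44, adjusted p = 0.0313 for tumours over pre-transformed cells).

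Oaz2, the second antizyme, fell in tumours on its brightest probe set, 1426763_at. The values were 147.1, 149.8, 209.9 and 171.1 in tumours, against 329.4, 320.7 and 318.3 in pre-transformed cells and 326.7 and 294.1 in controls. All tumours lay below all sorted samples, and tumour 3 was the closest to them. The mean of 167.7 in tumours (SD 0.24, n = 4) was 1.92-fold below the 322.8 of pre-transformed cells (SD 0.03, n = 3; log2 change −0.94 ± 0.16 SE, limma adjusted p = 0.000914). It was 1.85-fold below the 310 of controls (SD 0.11, n = 2; −0.89 ± 0.19 SE, adjusted p = 0.00384), a call lost without control 1 (adjusted p = 0.0556) and with the mean of all Oaz2 probe sets (−0.67, adjusted p = 0.0923). Quantile normalization, median centring and centring on the genes tested kept the lower direction in both tumour comparisons.

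The other Oaz2 probe sets did not pass. Probe set 1426764_at had 113.7, 110.3, 108.5 and 76.1 in tumours, against 111.9, 102 and 117.8 in pre-transformed cells and 117.9 and 121.4 in controls. Only tumour 4 stood clearly below the sorted samples there, and the log2 change was −0.13 over pre-transformed cells (limma adjusted p = 0.603) and −0.25 over controls (adjusted p = 0.396). Probe set 1442541_at was dim, at 3.1 to 31.8 in tumours, 41.9 to 45.6 in pre-transformed cells and 20.1 to 29.4 in controls, and gave no fold. Between pre-transformed and control cells the brightest set differed by 0.06 (adjusted p = 0.822).

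Sat1, the acetyltransferase of polyamine breakdown, gave no call. Its signals were 598.4, 246.1, 473.8 and 556.7 in tumours, against 510.2, 495.5 and 428.7 in pre-transformed cells and 528.5 and 450 in controls. Tumour 2 lay below every other array, tumours 1 and 4 lay above every sorted sample, and tumour 3 lay among them. The log2 change was −0.10 over pre-transformed cells (95% interval −0.72 to 0.51, limma adjusted p = 0.77) and −0.14 over controls (−0.83 to 0.56, adjusted p = 0.742). Pre-transformed over control cells gave −0.03 (−0.32 to 0.25, adjusted p = 0.922). Without tumour 2 the tumour changes were 0.18 and 0.15.

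Tumour 2 also had the lowest myeloid signal of the tumours. Its defining myeloid genes Lyz2, S100a8 and S100a9 were at 3.1, 2 and 0.8, against 1376.4 to 1741, 308.7 to 776.1 and 212.1 to 480 in the other tumours, and no marker was at exactly 0. Itgam went the other way, at 113.2 in tumour 2, the highest of the 9 arrays, against 23.4 to 57.7 in the other tumours. Of the 9 myeloid markers 2 were higher in tumours than in pre-transformed cells, where 23.9% of all genes were. Arg1, which makes ornithine from arginine and is abundant in some myeloid cells, had 147.9, 1.0, 66 and 93.1 in tumours, 1.8, 2.2 and 1.5 in pre-transformed cells and 0.9 and 0.8 in controls. Tumour 2 was at the level of sorted cells for Arg1, and the other tumours were far above. For Sat1 and Arg1 the part of these cells was not tested. Tumour 2, with a myeloid marker sum like that of sorted cells, had the highest Odc1 signal of the tumours on the brightest probe set (1478.1). Tumour 1 was the highest on 1437711_x_at (1455.1, against 1355.1 in tumour 2) and tumour 3 on 1427364_a_at (128, against 115.1). The Srm (967.7) and Oaz2 (149.8) signals of tumour 2 lay among those of the other tumours. The part of myeloid cells in these 3 genes was not tested.

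**Figure D3:**
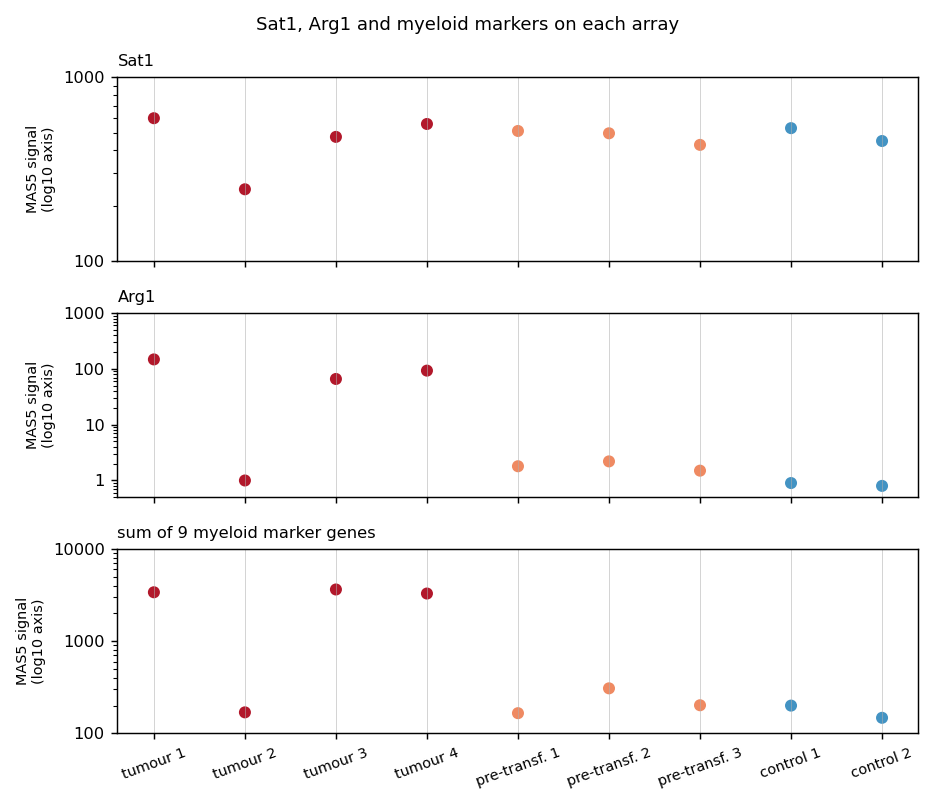
MAS5 signal (log10 axes) of Sat1, of Arg1 and of the sum of 9 myeloid marker genes on each of 9 arrays. Tumour 2 is the lowest tumour in all 3 panels, and its Arg1 signal of 1.0 and marker sum of 168.6 lie at the level of the sorted cells.

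The wider pathway was described with 4 lists, chosen with earlier results of these data known, so the counts and medians below are description only. The lists hold 35 genes. The array annotation names 32 of them, and 27 were tested. In tumours over pre-transformed cells 9 were higher and 3 lower, where 23.9% and 31% of all genes were, and the median log2 change was 0.30, against −0.12 over all genes. Over controls 9 were higher and 1 lower, where 20.5% and 25.2% of all genes were, with a median of 0.40, against −0.08 over all genes. In pre-transformed over control cells 0 of 27 were called by limma, where 1.63% of all genes were. An unadjusted p under 0.05 was found for 3 (Azin2, Ahcy and Slc3a2), and the share of all genes under that p is not given here.

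The list for arginine and ornithine supply had 7 tested genes, among them the antizyme inhibitor gene Azin2, which was not called. Of these 7, 3 were higher in tumours than in pre-transformed cells, where 23.9% of all genes were, and none was lower, where 31% were. Slc7a1, the cationic amino acid transporter that imports arginine, averaged 1019 in tumours, against 155.7 in pre-transformed cells, a log2 change of 2.71 ± 0.18 SE (limma adjusted p = 7.56e-06). The arrays gave 1067.1, 1288.3, 921.9 and 851.2 in tumours, against 133.4, 164 and 172.4 in pre-transformed cells and 151.7 and 173.4 in controls, with no overlap between tumours and sorted cells. Its other kept probe set passed too (2.25, adjusted p = 9.81e-05). Oat, ornithine aminotransferase, averaged 712.5 in tumours, against 194 in pre-transformed cells, a change of 1.88 ± 0.33 SE (adjusted p = 0.00102). Tumour 2 was the highest tumour for both genes, at 1469.8 against 521.3 to 637.4 in the others for Oat. Arg1 was the third (adjusted p = 0.0387), with dim means in both groups and a call that 11 of 19 alternatives did not keep. Aldh18a1, which starts ornithine synthesis from glutamate, did not pass on its brightest probe set (0.36, adjusted p = 0.182). Of its 4 other sets, 1415836_at passed (1.07, adjusted p = 0.00518, no overlap), as did a dim one (adjusted p = 0.00299). The argininosuccinate genes Ass1 and Asl did not pass.

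Of 9 tested genes that recycle methionine and salvage the by-product of spermidine synthesis, 4 were higher in tumours and none was lower, against the same shares of all genes. Mtap, which cleaves that by-product, methylthioadenosine, averaged 614.1 in tumours, against 93.7 in pre-transformed cells, a log2 change of 2.71 ± 0.16 SE (limma adjusted p = 6.34e-06). Its arrays read 652.6, 644.4, 593.8 and 569.5 in tumours, against 90.1, 87.8 and 104 in pre-transformed cells and 91.5 and 125.2 in controls, and the tumours lay close together far above the rest. The other 3 Mtap probe sets passed as well, with log2 changes of 1.71 to 2.95. Ahcy, adenosylhomocysteinase, averaged 1147 in tumours, against 268 in pre-transformed cells, a change of 2.10 ± 0.17 SE (adjusted p = 1.57e-05). Enoph1, a later salvage enzyme, had a change of 1.21 (adjusted p = 0.00012), and Mtr, methionine synthase, of 0.53 (adjusted p = 0.0112). The call of Mtr was lost in 3 of 19 alternatives, among them median centring (0.27, adjusted p = 0.312) and the fit without pre-transformed 1 (adjusted p = 0.0505). A second Mtr set passed as well (adjusted p = 0.0143). The salvage genes Mri1, Apip and Adi1 did not pass on their brightest sets (adjusted p of 0.36 to 0.877), while the Adi1 set 1449076_x_at was at least 3.18-fold higher in tumours (adjusted p = 0.000639) and 1438758_at did not pass (adjusted p = 0.175).

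Spermidine also supplies the hypusine of the translation factor eIF5A. Eif5a averaged 6844 in tumours, against 3743 in pre-transformed cells, a log2 change of 0.87 ± 0.13 SE (limma adjusted p = 0.000338). Its arrays read 7727.5, 6577, 7559.2 and 5709.7 in tumours, against 3622.2, 4131.7 and 3505 in pre-transformed cells and 3809.2 and 4116.6 in controls, without overlap. A dimmer Eif5a probe set gave a wider gap, with 1801.2 to 3496.2 in tumours, 302.5 to 430.2 in pre-transformed cells and 470.2 to 555.2 in controls (2.79, adjusted p = 1.53e-05). The enzymes that make hypusine did not pass, with −0.36 for Dhps (adjusted p = 0.0794) and 0.12 for Dohh (adjusted p = 0.65), nor did Eif5a2 (adjusted p = 0.245). A dim second Dohh set was lower in tumours (−0.88, adjusted p = 0.0169).

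Among 7 tested genes of breakdown, transport and other control, 1 was higher and 3 were lower in tumours, against 23.9% and 31% of all genes. Slc3a2, the heavy chain of several amino acid exchangers, averaged 793.9 in tumours, against 277.5 in pre-transformed cells, a log2 change of 1.52 ± 0.23 SE (limma adjusted p = 0.000391). Smox, spermine oxidase, averaged 64.37 in tumours, against 129.4 in pre-transformed cells, a change of −1.01 ± 0.31 SE (adjusted p = 0.0208), and did not pass against controls (adjusted p = 0.0579). Smox arrays read 35.6, 60.9, 98.5 and 80.4 in tumours, against 130.9, 117.7 and 140.5 in pre-transformed cells and 129.5 and 114.2 in controls. All tumours were below all sorted samples. The Smox call was lost in 4 of 19 alternatives. Among them were those without pre-transformed 1 or 3 (adjusted p = 0.0601 and 0.0715) and the mean of its probe sets (−0.74, adjusted p = 0.131). Atp13a2, a lysosomal polyamine exporter, averaged 139.4 in tumours, against 281.6 in pre-transformed cells, a change of −1.01 ± 0.18 SE (adjusted p = 0.00112). Atp13a2 arrays read 127, 117, 141.7 and 179.1 in tumours, against 297.5, 253.6 and 296 in pre-transformed cells and 229.6 and 264 in controls. A second set also fell (−1.44, adjusted p = 0.00118), the third was dim with a change of 1.48 (adjusted p = 0.0549), and the mean of all sets did not pass (−0.33, adjusted p = 0.316). Oaz3, an antizyme known from testis, was dim in both groups (adjusted p = 0.0357), and 6 of 18 alternatives lost its call. The related transporter Atp13a3 did not pass on its brightest set (0.06, adjusted p = 0.777), but 1442145_at did, at 1.71-fold higher in tumours without overlap (0.77, adjusted p = 0.0186).

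**Figure D4:**
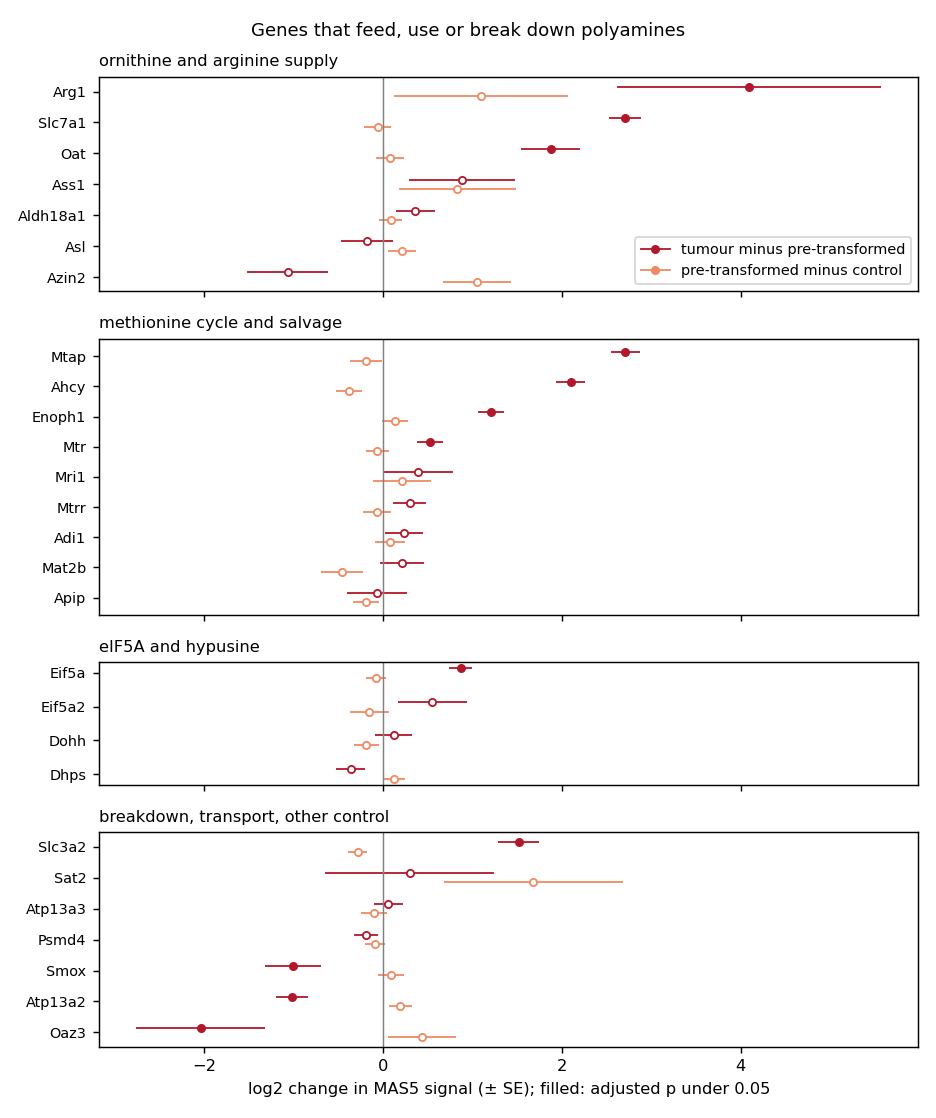
Log2 change in MAS5 signal (± SE) of the 27 tested genes of 4 pathway lists, for tumour minus pre-transformed and pre-transformed minus control. Filled points passed an adjusted p of 0.05. Of the tumour points 9 are filled to the right of 0 and 3 to the left, and no point of pre-transformed minus control is filled.

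Myc, a transcription factor for growth genes, had signals of 1205.7, 1486.1, 1722.5 and 1192.2 in tumours, against 116.2, 53.3 and 67.8 in pre-transformed cells and 88 and 59.4 in controls. Every tumour was above every sorted sample, as for Odc1 and Srm. Of all genes tested, 24.8% were higher without overlap in tumours over pre-transformed cells and 27.4% over controls. A link between Myc and these genes was not tested. Unlike Odc1, Myc overlapped between pre-transformed and control cells (log2 change 0.05, limma adjusted p = 0.957), and the difference between the genes was not tested. Ctnnb1, which encodes β-catenin, did not pass in either comparison with pre-transformed cells on its brightest probe set (adjusted p = 0.254 for tumours over them and 0.85 for them over controls). Its other probe sets did not overlap between tumours and pre-transformed cells, at 413.4 to 524.1 in tumours against 69.7 to 99.3 in pre-transformed cells on 1430533_a_at and 831.5 to 1127.8 against 596.5 to 647.4 on 1450008_a_at.

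The genes most like Odc1 were taken as those with the smallest root mean square difference between log2 signals centred on their means over 9 arrays. Gm4802 (0.282), Rrs1 (0.299), Oxct1 (0.352), Apoc3 (0.357) and Renbp (0.366) came first, and Gm4802 and Apoc3 were dim in every group. Rrs1, a ribosome biogenesis factor, averaged 979.3 in tumours, 221 in pre-transformed cells and 322.7 in controls. Oxct1, an enzyme of ketone body use, averaged 910.7 in tumours, 203.2 in pre-transformed cells and 323 in controls. Both had the order of Odc1, with tumours highest and pre-transformed cells lowest, which follows from choosing them by closeness to Odc1 on the same arrays.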

How the data were processed

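Gene expression was measured on 9 arrays, 4 tumour, 3 pre-transformed and 2 control. The authors deposited linear signal intensity values for each probe set, made with MAS5 per the submitters' processing notes, and no source used here gives its version. On each array the mean without the lowest and highest 2% was 100. Signals of 0 (218 values) were set to 0.1 and taken to log2 with no further normalization, and 64 control probe sets were left out. Kept were 26421 probe sets that reached their array's median (9.9 to 15.2) on at least 2 arrays. Of all 45037 probe sets 34945 named 1 gene, 932 several and 9160 none, and the brightest kept probe set stood for a gene, which gave 11644 genes.

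Tests used limma 3.58.1 (lmFit, eBayes with trend; R 4.3.3) with Benjamini-Hochberg adjustment over all genes, called at an adjusted p under 0.05. The comparison of pre-transformed with control cells was fitted on their 5 arrays, those of tumours on all 9. Means are geometric, and SDs are on the log2 scale. The 8 members, the pathway lists and the marker lists were chosen with earlier results of these data known. The fit was tested on simulated data. Alternatives were 2 other filters, quantile normalization, median centring, an offset of 16, the mean of probe sets, each probe set on its own, no trend, other arrays in the fit, the replicate block, no male arrays and each array left out. All kept probe sets, and centring on the genes tested, were added after seeing the data. Where probe sets were fitted on their own, a called set stood for its gene if there was one. All members, with the pathway genes that changed and chosen examples of those that did not, are named. Where the mean of 1 group was under its dim limit (35.9 in tumours, 43.7 in pre-transformed cells, 40.8 in controls), the fold is given as at least a value, and where both were under, none is given. Python 3.11.15 with matplotlib 3.10.9 drew the figures.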

Additional observations from a re-analysis of the deposited data

Results flagged for a closer look

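On the Oaz2 probe set 1426764_at, tumour 4 had a signal of 76.1, against 108.5 to 113.7 in the other tumours. On the log2 scale the gap to its nearest neighbour was 0.883 of the range of the 4 tumours. That is above Dixon's critical value, which chance passes in about 1 of 20 groups. This gap was the 1 above that value among 12 member probe sets examined. The brighter Oaz2 probe set 1426763_at did not place tumour 4 apart (171.1, among 147.1 to 209.9).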

How the results depend on the processing

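Odc1, Srm and Oaz2 kept their direction and their calls in tumours over pre-transformed cells under all 19 alternatives run (log2 changes of 1.86 to 2.60, 3.02 to 3.56 and −1.20 to −0.65), and so did Srm over controls under all 18. Slc7a1, Oat, Mtap, Ahcy, Enoph1, Eif5a and Slc3a2 also kept theirs over pre-transformed cells under all 19. The size of the Eif5a change varied, from 0.28 to 1.83 (highest limma adjusted p = 0.0383), against 2.35 to 3 for Mtap. The alternative with each probe set on its own let a called probe set stand for a gene wherever there was one. That setting could not show probe sets that disagree. The other Oaz2 probe sets did not pass when fitted singly (limma adjusted p of 0.0562 and 0.603). Members called in tumours over pre-transformed cells, 5 in the fit reported, numbered 3 with median centring and without male arrays, and 3 to 5 with each array left out. Over controls the 3 members called became 5 with centring on the genes tested (Azin1 and Oaz1 joined, adjusted p = 0.0295 and 0.0349), and 2 to 4 with each array left out. In pre-transformed over control cells 0 became 1 (Odc1) without male arrays and 0 to 1 with each array left out. Genes called there, 190, were 74 with no filter, 1 with no trend, 6 with all 9 arrays in the fit and 18 to 291 with each array left out (18 without control 2, 19 without pre-transformed 3, 33 without control 1, 291 without pre-transformed 2). In tumours over controls the 5323 genes were 2589 without control 1 and 3168 without control 2, and 2589 to 5703 over all arrays left out. The cause was not tested.

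Scaling moved the median of all genes. In tumours over pre-transformed cells it was −0.12 as reported, −0.38 with median centring and 0.17 with centring on the genes tested, and genes called numbered 2785 higher and 3607 lower as reported, 1877 and 4279, and 3624 and 2699. In tumours over controls the median was −0.08, −0.46 and 0.21, with splits of 2387 and 2936, 1253 and 4132, and 3246 and 2151. In pre-transformed over control cells the splits were 129 and 61, 77 and 113, and 120 and 63. Signs that turned were all of changes that did not pass, except Oaz1 in tumours over pre-transformed cells with quantile normalization (−0.184). Against controls Oaz1 turned with quantile normalization (−0.22) and median centring (−0.146). Sat1 turned with centring on the genes tested (0.189 over pre-transformed cells, 0.148 over controls) and, with each array left out, ranged from −0.246 to 0.181 and from −0.279 to 0.148, positive without tumour 2. In pre-transformed over control cells Myc turned with quantile normalization (−0.0331), median centring (−0.0813) and no male arrays (−0.266), and Oaz2 with median centring (−0.0737). With each array left out, changes there ranged from −0.266 to 0.334 for Myc, −0.0175 to 0.134 for Oaz2, −0.149 to 0.0834 for Sat1 and −0.189 to 0.0237 for Oaz1.

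Replicate numbers name different mice, and same-numbered arrays deviated together by correlations of −0.0241 to 0.0846. With the replicate block, members called were 5, 3 and 0 in tumours over pre-transformed cells, tumours over controls and pre-transformed over control cells, as without it, and genes called were 6071, 5072 and 148. Sat1 in pre-transformed over control cells turned with the block (0.0441). The block changed no member's call.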
